A study of Mus musculus with 7 samples.

Results

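The comparison is between the uterus of mice killed 3 h after an injection of dihydrotestosterone (DHT) and the uterus of mice given the vehicle. It rests on 2 of the 7 microarrays of the study, 1 array of pooled RNA on each side. All 12422 probe sets that are not the maker's controls were compared, of 12488 on the array. Per the labels, all mice were C57Bl/6 females aged 10 to 11 weeks, kept for 4 weeks before use under 12 h of light a day. Their ovaries were removed 7 days before death, so both pools come from uteri without ovarian hormones. The 3 h mice received 0.1 mg of DHT per mouse under the skin 3 h before death, and the vehicle mice were killed 24 h after their injection according to the description of the sample, although the title of that array gives 0 h. The protocols name 10 mice and do not say how many went into a pool. No label states at what hour the mice died. If the description holds, the treated pool was taken 3 h after an injection and the vehicle pool 24 h after one, so DHT, the injection and the hour of death cannot be told apart in any value here.

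DHT is the strongest natural ligand of the androgen receptor and cannot be converted to estrogen. The receptor waits in the cytoplasm in a complex with chaperones, moves to the nucleus once the hormone binds, and attaches to DNA sites that it shares in part with the glucocorticoid and progesterone receptors. Steroids also act within minutes through kinases, and such signals reach the genome through factors of the CREB, ATF, AP-1 and SRF families. In the rodent uterus androgens act on the stroma, the muscle and the epithelium and make the organ grow.

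Most genes had nearly the same signal on both arrays. The signals are intensities scaled by the authors to a common mean, and values under 145.9, the 40th percentile of the whole table, were raised to that value, which is called the floor here. A log2 ratio is the log2 signal at 3 h minus that on vehicle. Over the 6326 genes whose mean log2 signal over the 7 arrays lay above the floor the median log2 ratio was 0.00, and the median distance from 0 was 0.20. Array medians were 234.2 at 3 h and 237.0 on vehicle. A gene or probe set counted as 2-fold higher or lower where the log2 ratio reached 1 or -1 and the larger signal was at least 291.8. By that rule 99 of 8421 probe sets were higher (1.18%) and 70 were lower (0.831%). Counted with the brightest probe set of each gene, 78 genes were higher (1.23%) and 48 were lower (0.759%). With 1 array a side there is no replicate and no test, and the number of arrays limits the precision of every value. A whole organ was extracted, so fewer cells of a type and less RNA per cell cannot be told apart.

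**Figure D1:**
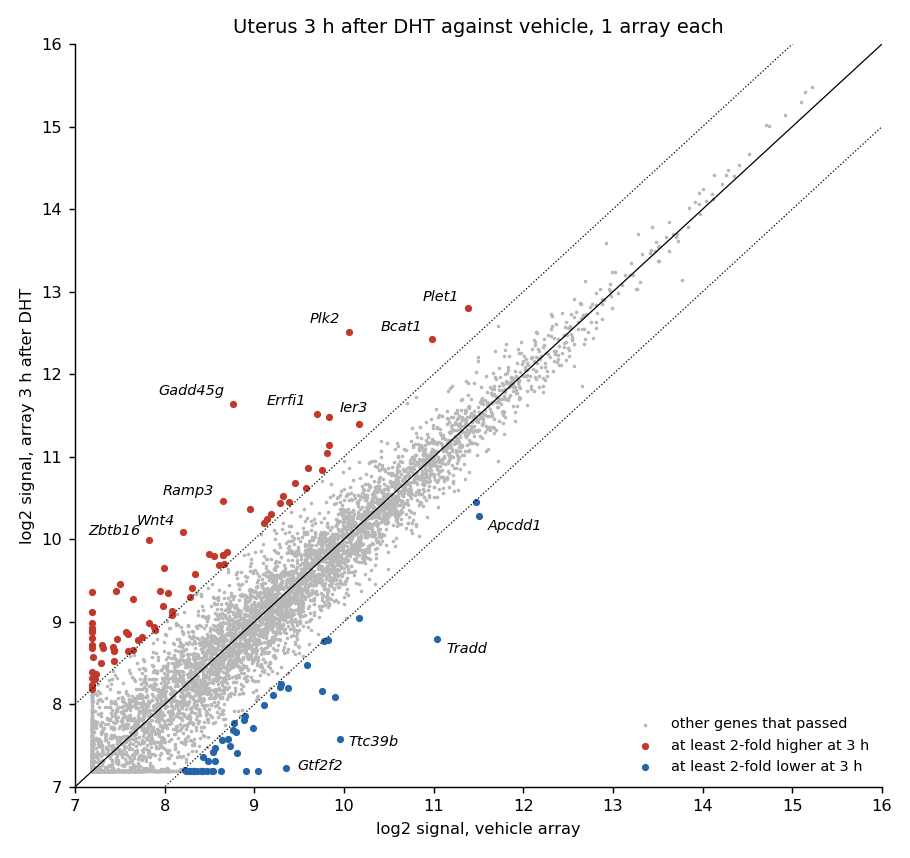
Each point is 1 of the 6326 genes that passed the filter, with its log2 signal 3 h after DHT on the vertical axis and on vehicle on the horizontal axis. The solid line marks equal signals and the dotted lines a 2-fold difference, beyond which lie 78 genes above and 48 below, including Gadd45g and Plk2 far above the line.

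The higher and lower genes were unlike in brightness. Among the 99 higher probe sets the larger of the 2 signals had a median of 583.8, and 28.3% reached 1000. Among the 70 lower probe sets that median was 426.9, and 8.57% reached 1000, against 26.0% of all probe sets that passed. Probe sets that the maker marks with a suffix, for shared or relaxed design, made up 17.2% of the higher and 34.3% of the lower probe sets, against 19.5% of all. Few genes had another probe set to compare. Of 9 higher genes with one, 6 had the same sign on the others, and Errfi1 (1.16) and Krt6a (1.59) were at least 2-fold higher there too. The rest of the same sign were Pik3cd (0.50), Gas8 (0.20), Grik5 (0.03) and Slc30a5 (0.01), the last of them hardly above vehicle. Rab31 (-0.20), Fam220a (0.00) and Ttc1 (0.00) did not have the same sign. Of 6 lower genes with another probe set, 1 had the same sign on the other and none was 2-fold lower there. At the threshold Gas8 stood just inside (at least 1.00, with 291.9 at 3 h and 95.5 on vehicle, under the floor) and Polr1b just outside (0.998, with 1072.7 at 3 h and 537.0 on vehicle).

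At this floor the 2 largest log2 ratios belonged to regulators of the cell cycle that many stress signals induce. With the floor at the 20th percentile Abcf2 (2.92) stood above Gadd45g, and Col9a1 (2.47) was among the genes above Plk2. Matk (555.8 at 3 h and 94.4 on vehicle) and Eya3 (409.1 at 3 h and 65 on vehicle) stood above Plk2 there too. Abcf2, Col9a1, Matk and Eya3 were under the present floor on vehicle, so that their ratios here are lower bounds. Gadd45g, a small protein that binds cyclin-dependent kinase complexes and activates MAP kinase cascades, had a signal of 3182.8 at 3 h and 435.4 on vehicle (log2 ratio 2.87). Plk2, a polo-like kinase of G1 that early response signals induce, had 5850.4 at 3 h and 1060.4 on vehicle (2.46). Both were highest of the 7 arrays at 3 h. For Plk2 the signals were 1678.7 at 1 h and 662.3 at 6 h, so the peak was narrow. The gene lists used here were chosen with earlier results of these data known. Gadd45g and Plk2 are both on that of damage checkpoint and p53 target genes. Of its 22 genes that passed, 3 were 2-fold higher (13.6%, against 1.23% of all genes) and none 2-fold lower, while 11 lay above vehicle and 10 below. Its median log2 ratio was 0.01, against 0.00 for all genes. The third higher gene was Sfn, an epithelial 14-3-3 protein that holds cells in G2, at 1401.2 at 3 h and 669.8 on vehicle (1.06). At the other end of that list stood Ccng2, a cyclin of resting cells, at 664.1 at 3 h and 1167.8 on vehicle (-0.81), and Chek1, a checkpoint kinase, under the floor at 3 h and at 220.4 on vehicle (-0.60, a bound).

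Some genes that restrain growth factor and cytokine signals were 2-fold higher too, named here by role. Errfi1, which binds the EGF receptor and blocks its kinase, had 2931.8 at 3 h and 831.1 on vehicle (1.82). Dusp1, a phosphatase that switches off MAP kinases, had 1639.3 at 3 h and 701.7 on vehicle (1.22). Socs1, which does the same to cytokine receptors and JAK kinases, had 892.6 at 3 h and 375.4 on vehicle (1.25). All 3 were highest at 3 h among the 7 arrays. Near relatives were closer to vehicle, with Socs3 at 0.90, Dusp6 at 0.60, Dusp2 at 0.30 and Socs2 at -0.27. The list of EGF ligands and MAP kinase feedback genes held no other 2-fold gene among the 17 that passed, and its median was -0.09. Of all genes 1.23% were 2-fold higher and 0.759% lower. The receptors themselves lay below vehicle, with Egfr at -0.41 and Erbb3 at -0.51.

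Immediate early genes encode transcription factors and small regulators that signals switch on without new protein. In this list 4 of 26 genes were 2-fold higher and none 2-fold lower, against 1.23% and 0.759% of all genes, and the median was 0.37. Ier3, a survival gene, had 2856.0 at 3 h and 913.1 on vehicle (1.65). Fos, the AP-1 subunit, had 1319.9 at 3 h and 493.7 on vehicle (1.42). Ier2 had 2261.5 at 3 h and 909.9 on vehicle (1.31), and Nr4a1, an orphan nuclear receptor that cyclic AMP and calcium induce, had 653.7 at 3 h and 263.2 on vehicle (1.31). The 4 genes were each highest at 3 h. Short of 2-fold were Myc (0.98), Egr1 (0.83), Klf4 (0.81) and Junb (0.62), and 18 of the 26 lay above vehicle. The family was not uniform, since Jun (-0.20), Fosb (-0.27) and Btg1 (-0.56) lay below vehicle.

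**Figure D2:**
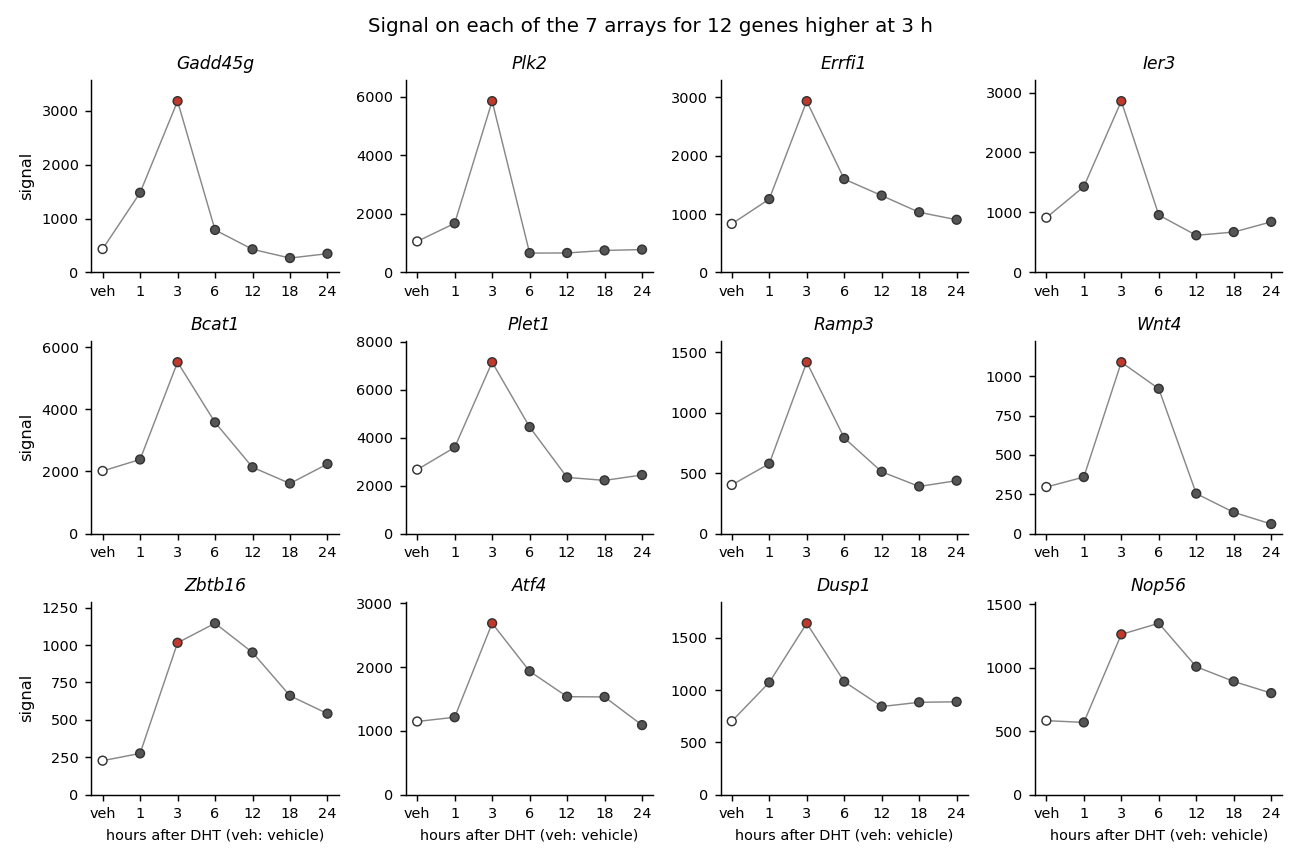
Signal of 12 genes on all 7 arrays, with vehicle (open point) at the low end and hours after DHT to the right, on linear axes that start at 0. The 3 h value (red) is the highest of the 7 in every panel except those of Zbtb16 and Nop56, which are higher at 6 h. The 12 genes were picked after their values were seen.

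One short sequence was in a larger share of the promoters of the genes higher at 3 h than of all genes that passed. The cyclic AMP response element TGACGTCA is a palindrome that factors of the CREB and ATF families bind once cyclic AMP or other kinase signals have activated them. Promoters here are the 250 bases before to 50 bases after a gene's start in the RefSeq table of build GRCm38.p6, searched on both strands. A gene can have more than 1 start, and it counted where the promoter of any start held the sequence. A promoter was in the table for 67 of the 78 higher genes, and 11 of these genes (16.4%) held the full element. It was in 172 of 5063 genes that passed (3.40%), in 1 of 36 lower genes (2.78%) and in 588 of all 32851 promoters (1.79%). Promoters per gene were 1.27 in the higher genes, 1.29 in all that passed and 1.45 in those that passed with the element. The 2 higher genes with the largest ratios that hold it are Plk2 and Errfi1. Their 250 bases before the start follow, since the element lies close to the start in both, with the element in capitals. The Plk2 stretch is chr13:110394794-110395043 and the Errfi1 stretch chr4:150854820-150855069, both on the plus strand.
Plk2: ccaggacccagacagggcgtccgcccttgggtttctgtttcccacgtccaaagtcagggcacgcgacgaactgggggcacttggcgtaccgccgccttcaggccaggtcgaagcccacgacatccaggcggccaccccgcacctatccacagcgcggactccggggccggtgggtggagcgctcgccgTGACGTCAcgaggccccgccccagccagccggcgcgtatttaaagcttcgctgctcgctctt
Errfi1: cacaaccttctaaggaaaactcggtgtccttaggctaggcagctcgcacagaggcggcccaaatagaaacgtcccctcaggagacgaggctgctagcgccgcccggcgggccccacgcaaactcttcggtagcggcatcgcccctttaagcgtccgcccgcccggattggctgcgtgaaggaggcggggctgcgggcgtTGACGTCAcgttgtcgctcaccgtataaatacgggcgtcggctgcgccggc
The element spans bases -62 to -55 of Plk2 and -51 to -44 of Errfi1, counted back from the first transcribed base. Errfi1 also holds the TATA box TATAAA at -28 to -23.

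In the other 9 genes the element lay between base -175 and the start itself. They are shown as 40 bases each, so that the element can be seen in its surroundings.
Fam220a: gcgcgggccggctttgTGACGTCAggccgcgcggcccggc
Dusp1: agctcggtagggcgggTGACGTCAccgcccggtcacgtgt
Znrf4: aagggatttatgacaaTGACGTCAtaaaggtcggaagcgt
Ppan: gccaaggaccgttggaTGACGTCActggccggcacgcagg
Phospho2: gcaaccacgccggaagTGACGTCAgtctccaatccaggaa
Rcan1: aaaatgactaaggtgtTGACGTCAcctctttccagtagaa
Ttc1: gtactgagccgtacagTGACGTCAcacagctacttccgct
Slc25a25: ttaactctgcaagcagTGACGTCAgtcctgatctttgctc
Idnk: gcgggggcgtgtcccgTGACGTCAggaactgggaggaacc
Plus-strand windows are chr5:143548697-143548736 for Fam220a, chr9:20888124-20888163 for Ppan, chr2:69789559-69789598 for Phospho2 and chr13:58157608-58157647 for Idnk. On the minus strand are chr17:26508592-26508631 for Dusp1, chr17:56512529-56512568 for Znrf4, chr16:92400230-92400269 for Rcan1, chr11:43748098-43748137 for Ttc1 and chr2:32424193-32424232 for Slc25a25. The bases on either side of the element differ between the genes. Dusp1, the MAP kinase phosphatase named above, carries it at -143 to -136. Ppan, a ribosome assembly factor, carries it at -35 to -28 and had a signal of 504.9 at 3 h and 226.2 on vehicle (1.16). Rcan1, an inhibitor of the phosphatase calcineurin, had 1171.8 at 3 h and 551.9 on vehicle (1.09). Slc25a25, a mitochondrial carrier of ATP and magnesium that calcium regulates, had 829.9 at 3 h and 403.7 on vehicle (1.04). Of the 11 genes, Errfi1, Fam220a and Ttc1 have another probe set, at 1.16 for Errfi1 and at 0.00 for Fam220a and Ttc1. Fam220a was higher on each of the later arrays, up to 481.5 at 6 h against 409.7 at 3 h, while the other 10 were highest at 3 h.

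Other sequences had shares closer to those of all genes that passed. The shorter site TGACG, which each full element also contains, was in 38.8% of the higher genes and 35.4% of those that passed. AGAACA, the short site that the androgen, glucocorticoid and progesterone receptors bind, was in 14.9% against 15.3%. The CArG box, where SRF binds, was in 0 of 67 higher genes, which allows a share of up to 4.48%, against 1.88% of those that passed. The AP-1 site TGAGTCA (4.48% against 5.08%), the E box CACGTG (8.96% against 12.1%), the ETS site CCGGAAGT (7.46% against 9.01%), the GC box GGGCGG (65.7% against 68.4%), the TATA box TATAAA (11.9% against 10.6%) and the heat shock element GAANNTTC (8.96% against 7.01%) were looked for after the share of the first was known. Base composition was alike, with a median of 61.3% G and C in the promoters of the higher genes and 60.7% in all that passed. Read from the element's side, 11 of the 172 genes that hold it were 2-fold higher (6.40%), against 56 of 4891 without it (1.14%). Most genes with the element lay near vehicle, with a median log2 ratio of 0.01 and quartiles of -0.12 and 0.23. A match describes letters and not a bound site.

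The share of genes with the element was larger among the genes 2-fold above vehicle at 3 h than among those of any other hour. At 1 h it was 3.85% (1 of 26 genes), and at 3 h the 16.4% above. At 6 h the share came to 4.41% (3 of 68), at 12 h to 3.06% (3 of 98), at 18 h to 3.03% (2 of 66) and at 24 h to 6.38% (3 of 47). From 1 to 3 genes held the element at each hour other than 3 h, so those shares are imprecise. All 6 lists are taken against the same vehicle array, and their genes are in part the same. At 3 h the share moved with the threshold. It was 6.91% (15 of 217) among genes 1.5-fold higher and 8.45% (18 of 213) with a lower floor, and 22.2% (4 of 18) among genes with a signal of at least 1000.

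**Figure D3:**
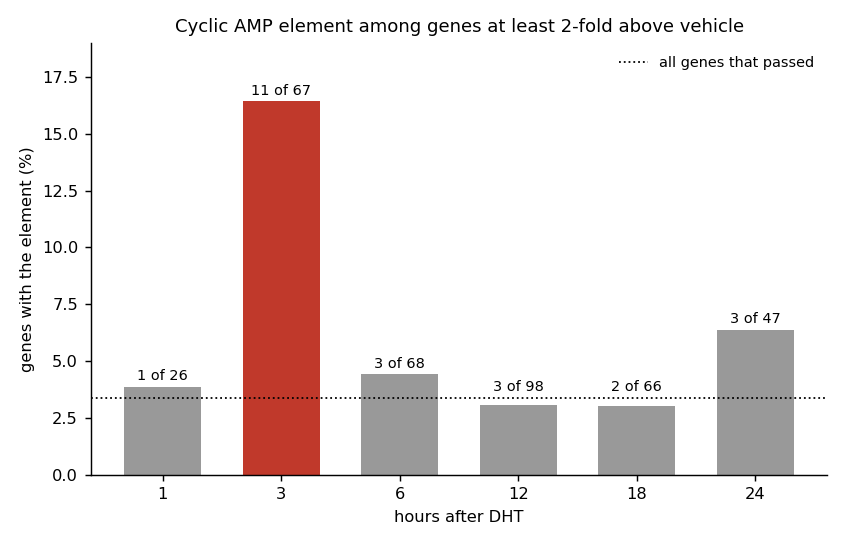
Percentage of genes with the full cyclic AMP element TGACGTCA in their promoter, among the genes at least 2-fold above vehicle at each hour after DHT. Numbers over the bars give genes with the element of genes with a promoter, the 3 h bar (red) is the tallest at 16.4%, and the dotted line marks the 3.40% of all genes that passed.

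Targets of the androgen and glucocorticoid receptors lay mostly above vehicle. Of 25 genes that passed, 4 were 2-fold higher and none lower (1.23% and 0.759% of all genes), 18 lay above vehicle, and the median was 0.42 against 0.00 for all genes, the largest of the 29 gene lists. Zbtb16, a zinc finger repressor that steroids induce directly, had 1015.1 at 3 h and 226.8 on vehicle (2.16). Fkbp5, a co-chaperone of steroid receptors, had 329.8 at 3 h and 150.5 on vehicle (1.13). Neither was at its highest at 3 h, and Fkbp5 reached 818.3 at 6 h and 1036.9 at 12 h. Errfi1 and Dusp1, which belong to this list too, complete the 4. Hsd11b2, whose enzyme inactivates corticosterone, stood just under the threshold at 644.6 at 3 h and 325.9 on vehicle (0.98), and Sgk1, a kinase of salt transport, at 980.2 at 3 h and 545.2 on vehicle (0.85). Of the 7 below vehicle, Mt1 (-0.06) and Glul (-0.08) lay close to it, and Cdkn1c (-0.33) was the lowest. Tsc22d3, Azgp1 and Tat were at the floor on both arrays.

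Receptor genes lay nearer to vehicle. Of 22 steroid and nuclear receptor and coregulator genes that passed, none was 2-fold higher and 1 was lower (1.23% and 0.759% of all genes). Their median was 0.23. Rarg, a retinoic acid receptor, was the highest at 282.0 at 3 h and 155.4 on vehicle (0.86), and Pgr, the progesterone receptor, had 535.9 at 3 h and 357.1 on vehicle (0.59). Esr1, the main uterine estrogen receptor, had 566.8 at 3 h and 480.8 on vehicle (0.24). Nr1h3, the oxysterol receptor LXR alpha, was the only 2-fold lower member at 190.8 at 3 h and 417.4 on vehicle (-1.13). Its signal at 1 h was 410.9, close to vehicle. Among 12 enzymes and receptors of steroid and prostaglandin metabolism none was 2-fold different. The lowest was Ptger4, a prostaglandin E2 receptor that raises cyclic AMP, at 527.8 at 3 h and 1035.8 on vehicle (-0.97).

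Genes known to answer to estrogen in the uterus made up the list with the most 2-fold members. Of 32 that passed, 7 were 2-fold higher (1.23% of all genes) and none lower (0.759%), 23 lay above vehicle and the median was 0.33. Padi1 had 705.3 at 3 h and 181.3 on vehicle (1.96), and Padi2 had 764.4 at 3 h and 322.5 on vehicle (1.25). Both encode enzymes that turn arginine in proteins into citrulline, and their relative Padi4 was at 0.42. Ramp3, which makes the calcitonin-like receptor respond to adrenomedullin, had 1417.0 at 3 h and 401.8 on vehicle (1.82), and Adm, adrenomedullin itself, a peptide that widens vessels, had 662.6 at 3 h and 175.1 on vehicle (1.92). The ligand and this receptor partner were thus both higher, while the other partners Ramp2 (0.66) and Ramp1 (0.15) stood nearer to vehicle. Vegfa, Wnt4 and Inhbb, described below, complete the 7. Of the secretory genes of the estrogen response, Ltf was at 0.28, Muc1 at -0.33 and Clu, the lowest of the list, at -0.66. The cyclin gene Ccnd1 was at -0.06.

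Among vessel genes 2 growth factors were higher. Vegfa, the main growth factor of blood vessels, had 618.5 at 3 h and 200.2 on vehicle (1.63). Its relative Pgf had 294.4 at 3 h and was just under the floor on vehicle (at least 1.01). In the vascular list 4 of 24 genes were 2-fold higher, against 1.23% of all genes, and 3 of them (Vegfa, Adm and Ramp3) are the genes counted in the estrogen list. In it 12 lay above and 12 below vehicle and the median was 0.02. Of the receptors, Flt1 was at 0.05 on its brighter probe set and 0.54 on the other, Kdr at -0.29 and Flt4 at -0.11. The hypoxia factors Hif1a (-0.05) and Epas1 (-0.19) lay near vehicle. Glycolysis and hypoxia genes likewise had a median of 0.04, with 14 above vehicle and 9 below. Of these 23 genes 1 was 2-fold higher, against 1.23% of all genes. It was Hk2, a hexokinase, at 558.9 at 3 h and 270.9 on vehicle (1.04). Among the 9 below vehicle were Pgk1 (-0.17), Ldha (-0.11) and Bnip3 (-0.36). A part of hypoxia was not tested.

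Among developmental signals 2 ligands were 2-fold higher, and both are genes counted in the estrogen list too. Wnt4, a secreted factor needed for uterine development, had 1089.4 at 3 h and 295.8 on vehicle (1.88). Inhbb, a subunit of activin B and inhibin B, had 505.6 at 3 h and was under the floor on vehicle (at least 1.79). No other of the 51 genes in the list of Wnt, BMP, TGF-beta and patterning genes was 2-fold different, and the median was 0.00. Among all genes the shares were 1.23% higher and 0.759% lower. Axin2, a feedback target of Wnt signals, was at 0.70 and Smad7, a feedback inhibitor of TGF-beta, at 0.67. Apcdd1, an inhibitor of Wnt signals at the membrane that was on none of the lists, was among the 25 lowest genes and the brightest of them, at 1245.3 at 3 h and 2906.0 on vehicle (-1.22). It was lowest at 3 h of all 7 arrays, with 1692.7 to 2406.0 on the other DHT arrays.

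Most chaperone genes of the cytosol and mitochondria lay above vehicle. Of 32 cytosolic and mitochondrial chaperones 26 were above vehicle and 5 below, and the median was 0.38. Of these genes 2 were 2-fold higher (6.25%) and none lower, against 1.23% and 0.759% of all genes. They were Fkbp5, described above, and Hsph1, a partner of HSP70, at 1838.4 at 3 h and 862.4 on vehicle (1.09). Hsp90aa1, the chaperone that holds steroid receptors ready for hormone, had 6111.4 at 3 h and 3358.6 on vehicle (0.86), and Stip1, which hands clients from HSP70 to HSP90, was at 0.75. Hspa1a (0.83) and Hspa1b (0.82), the inducible HSP70 genes, were alike, although near-identical copies can share probes. Hspd1 (-0.32), the mitochondrial chaperonin, lay below vehicle while its partner Hspe1 (0.61) lay above it. In the endoplasmic reticulum list 14 lay above vehicle and 9 below, and the median was 0.15. There 1 of 23 genes was 2-fold higher, against 1.23% of all genes. It was Manf, a secreted stress factor, at 1215.6 at 3 h and 566.2 on vehicle (1.10).

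Genes of the nucleolus, where ribosomes are built, lay mostly above vehicle. Of 39 genes 30 were above vehicle and 9 below, the median was 0.25, and 3 were 2-fold higher (7.69%, against 1.23% of all genes). They were Rrs1, a ribosome assembly factor, at 898.9 at 3 h and 401.3 on vehicle (1.16), Ppan, and Nop56, of the complex that methylates ribosomal RNA, at 1262.2 at 3 h and 582.4 on vehicle (1.12). Nhp2 (0.96), Ddx21 (0.93), Bysl (0.77) and Ncl (0.60) were above vehicle too. Npm1 (-0.09) and Imp4 (-0.72) were not. Myc, whose protein drives many genes of this list, had 475.6 at 3 h and 241.0 on vehicle (0.98). Its target Srm, the spermidine synthase, had 546.8 at 3 h and 281.0 on vehicle (0.96).

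Atf4, the transcription factor of the amino acid and integrated stress response, had 2688.7 at 3 h and 1147.3 on vehicle (1.23). It was highest at 3 h. Of the 28 genes in its list that passed, 19 lay above vehicle and 9 below. Another 4, Trib3 and Slc7a11 among them, were at the floor on both arrays. Mthfd2, a mitochondrial folate enzyme, was at 0.84, Atf5 at 0.70 and Ddit3 at 0.57, whereas Asns, the asparagine synthetase, was at -0.30, Slc1a4, a neutral amino acid carrier, at -0.58 and Phgdh, the first enzyme of serine synthesis, at -0.75. The median over the 28 genes of that list was 0.12. Among 29 translation factors 1 was 2-fold higher and 1 lower, against 1.23% and 0.759% of all genes. Eif3j1 was higher (1472.1 at 3 h and 636.8 on vehicle, 1.21). Eef1b2 was lower (180.5 at 3 h and 424.0 on vehicle, -1.23), on a probe set of relaxed design.

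**Figure D4:**
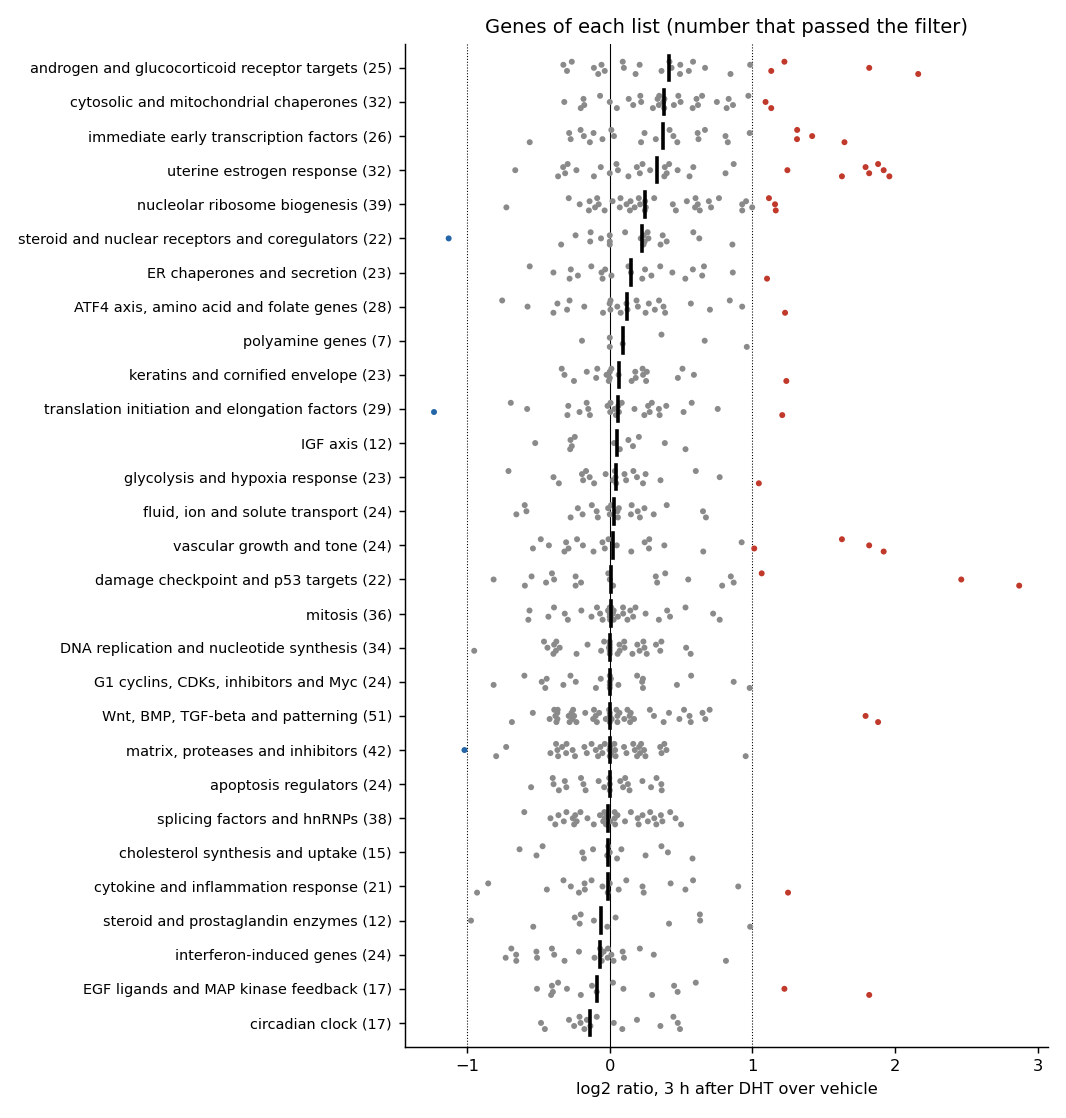
Log2 ratio at 3 h of each gene that passed the filter, by gene list, with the list's median as a black bar and the number of genes in brackets. Genes 2-fold higher are red and those 2-fold lower blue, between dotted lines at 1 and -1, and the lists run from a median of 0.42 at the top to -0.14 at the bottom.

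Bright genes outside the lists were also among the 25 highest. Bcat1, which starts the breakdown of branched-chain amino acids, had 5521.0 at 3 h and 2015.9 on vehicle (1.45). Plet1, a surface protein of epithelia, had 7139.6 at 3 h and 2662.8 on vehicle (1.42). Sgpp1, which removes the phosphate from sphingosine 1-phosphate, had 665.4 at 3 h and 246.7 on vehicle (1.43). All 3 were highest at 3 h of the 7 arrays. Nup107, of the nuclear pore, had 801.1 at 3 h and 254.4 on vehicle (1.65), but it was at 570.8 to 803.4 on the other DHT arrays, so that vehicle alone was low. Grik5, a glutamate receptor subunit, was in the same position (422.8 at 3 h and 157.7 on vehicle, 1.42), and its other probe set was at 0.03.

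Of the 25 highest genes 9 were under the floor on vehicle, so that their ratios are lower bounds. Besides Inhbb they include Col9a1, a chain of cartilage collagen, with 658.2 at 3 h (at least 2.17), and Matk, a kinase that restrains Src kinases, with 555.8 at 3 h (at least 1.93). Ebi3 (at least 1.74), a subunit of the cytokine IL-27, Lgals7 (at least 1.72), a galectin of stratified epithelium, and Fam83g (at least 1.68) follow. Abcf2 (at least 1.61), Aldh1a2 (at least 1.52), which makes retinoic acid, and Eya3 (at least 1.49), a phosphatase, complete them. Of these, Lgals7 had its highest signal at 18 h and Aldh1a2 and Abcf2 at 6 h. For all of them except Inhbb, vehicle was the lowest of the 7 arrays. On the other DHT arrays Lgals7 was at 278.4 to 580.4, Fam83g at 187.3 to 377.6 and Ebi3 at 158.9 to 406.2. Over all 78 higher genes the 3 h signal was the highest of the 7 in 54 (69.2%) and vehicle the lowest in 47 (60.3%). For all genes that passed these shares were 15.8% and 15.3%. Choosing genes by this ratio favours both, so the shares only describe the genes.

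Many lists held no 2-fold gene or nearly none. Of all genes only 1.23% were 2-fold higher and 0.759% lower, so none in a list this small does not set it apart. There was none among 24 genes of G1 control, 34 of DNA replication, 36 of mitosis, 15 of cholesterol synthesis, 24 of apoptosis, 38 splicing factors, 12 of the IGF axis, 24 of ion and fluid transport and 17 of the circadian clock, and the medians of these lists lay between -0.14 and 0.05. The replication gene Pola1, a polymerase subunit, was the lowest of them, under the floor at 3 h and at 281.9 on vehicle (-0.95, a bound). Dbp, a clock output gene with a strong daily rhythm in many tissues, had 158.8 at 3 h and 221.8 on vehicle (-0.48), and Per1 had 339.3 at 3 h and 241.2 on vehicle (0.49). Of 24 interferon-induced genes 17 lay below vehicle and the median was -0.07, with Gbp2 lowest at 347.2 at 3 h and 575.8 on vehicle (-0.73). In the matrix list Lamc1, a laminin chain, was 2-fold lower (434.1 at 3 h and 879.4 on vehicle, -1.02) on a probe set that the maker marks as shared within a sequence family, and Eln, elastin, was the highest at 3224.0 at 3 h and 1665.9 on vehicle (0.95). Keratin genes had a median of 0.06, with 1 of 23 2-fold higher, Krt6a, a keratin of activated stratified epithelium, at 2112.6 at 3 h and 895.9 on vehicle (1.24).

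Lower genes were dimmer and fewer. The lowest ratio was that of Ttc39b, a protein of lipid handling in liver and gut, with 191.4 at 3 h and 990.8 on vehicle (-2.37). Next was Tradd, the adaptor of the TNF receptor, with 443.0 at 3 h and 2103.6 on vehicle (-2.25). Gtf2f2, a subunit of general transcription factor TFIIF, had 149.5 at 3 h and 655.7 on vehicle (-2.13). The 3 h array was the lowest of the 7 for each, yet all 3 values come from probe sets with a suffix. The other probe set of Ttc39b was at 0.00, and those of Ube2k (-1.59, with 0.03 on the other), Gpsm3 (at most -1.43, with 0.00) and Prp2 (-1.81, with 0.00) were not lower either. Without a suffix the lowest were Colq, the collagen tail of acetylcholinesterase, under the floor at 3 h and at 526.2 on vehicle (at most -1.85), and Bhmt, a methyltransferase that uses betaine, under the floor at 3 h and at 478.2 on vehicle (at most -1.71). Of the 25 lowest genes 11 were at the floor at 3 h, which makes their ratios bounds. Those not described here, from Akirin1 (-1.40) and Ppp2r5d (at most -1.33), a phosphatase subunit, to Klf1 (at most -1.13), an erythroid transcription factor, had vehicle signals of 320.4 to 507.0.

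Other lower genes are described singly, picked from the 25 lowest after their values were seen. Il15ra, which presents interleukin 15 to natural killer and T cells, had 293.3 at 3 h and 663.0 on vehicle (-1.18), against 882.5 at 1 h. Gzmb, a protease of the granules of those cells, was under the floor at 3 h and at 328.2 on vehicle (at most -1.17). Of 6 T, B and NK cell markers that passed, Gzmb among them, 2 lay above vehicle and 3 below, and Ighm was the highest at 0.29, while 8 of 13 were at the floor on both arrays. In the cytokine list none of 21 genes that passed was 2-fold lower and 1, Socs1, was higher (0.759% and 1.23% of all genes). Of its 43 genes on the array 23 were at the floor on both arrays. Mst1r, the receptor of macrophage stimulating protein, stood just over the floor at 146.6 at 3 h and 353.9 on vehicle (-1.27). Abcb1a, a drug efflux pump, had 159.0 at 3 h and 377.5 on vehicle (-1.25). Ager (at most -1.14), the receptor for glycated proteins, and Kcnd3 (at most -1.34), a potassium channel, were high on the vehicle array alone, with no other array above 209.7 for Kcnd3 and 160.7 for Ager. Only 3 of the 48 lower genes were on any of the 29 lists (6.25%), compared with 29 of the 78 higher genes (37.2%) and 11.2% of all genes that passed. Many list members were chosen as genes that hormones and growth factors raise, and the lists were chosen with earlier results of these data known.

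**Figure D5:**
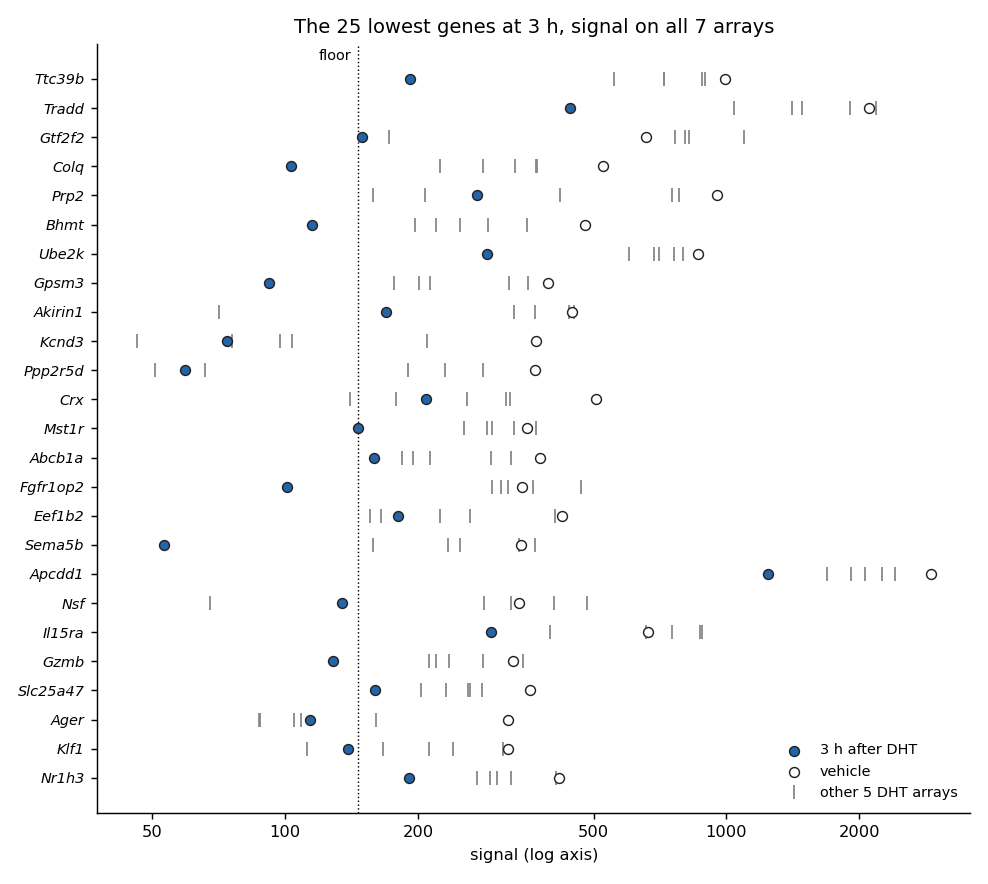
Signals on a log axis of the 25 lowest genes at 3 h, lowest ratio at the top, with 3 h after DHT filled, vehicle open and the other 5 DHT arrays as ticks. Apcdd1 and Tradd are the only ones above 1000 on vehicle, and 11 of the 25 lie left of the dotted line, the floor of 145.9, at 3 h.

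Defining markers of uterine tissue were present. The stromal and Mullerian markers Hoxa10 (499.0 at 3 h and 480.8 on vehicle) and Hoxa11 (3694.9 at 3 h and 2354.6 on vehicle), the smooth muscle gene Myh11 and the epithelial gene Krt8 were all well above the floor. The summed signal of 14 epithelial markers was 21644.0 at 3 h and 21521.0 on vehicle, and that of 12 stromal markers was 52173.4 at 3 h and 48761.3 on vehicle. Smooth muscle markers summed to 40067.5 at 3 h and 44026.5 on vehicle, and 8 of 11 lay below vehicle, with a median of -0.19. Endothelial markers had a median of -0.23, with 7 of 11 below vehicle, and macrophage markers -0.13, with 6 of 11 below. Adipocyte markers were lower in 6 of 7, with a median of -0.35, and Lipe, the hormone-sensitive lipase, had 254.3 at 3 h and 552.8 on vehicle (-1.12). All 5 ovary and oviduct markers that passed were lower (median -0.37), and Cyp11a1 and Inha, which define ovarian tissue, were at the floor on both arrays. Of 6 skeletal muscle markers that passed 4 lay below vehicle, with a median of -0.30, and Myh4, a fast myosin, had 148.1 at 3 h and 296.1 on vehicle (-0.9995), just outside the lower threshold. At the floor on both arrays were 6 of the 11 on the array, Myh1 and Myh2 among them, with Tnnc2 in both counts, and likewise all 4 eosinophil markers, Cd3e and S100a8. The part of the adipocyte and muscle differences in the lower genes was not tested.

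The controls of the 2 arrays were not identical. The ratio of 3′ to 5′ signal, a measure of RNA integrity and labelling, was 0.888 at 3 h and 0.836 on vehicle for Gapdh, and 1.17 at 3 h and 1.14 on vehicle for actin. For pyruvate carboxylase it was 2.28 at 3 h and 2.89 on vehicle, and a middle probe set of that gene had 353.0 at 3 h and 164.2 on vehicle (1.10). The 3′ probe set of 18S ribosomal RNA had 1087.7 at 3 h and 452.5 on vehicle (1.27), and 1041.5 at 18 h. The bacterial and phage sequences added as controls were brighter at 3 h in 9 of 9 probe sets, by 0.29 to 0.96 on the log2 scale. Actin itself had 34343.3 at 3 h and 28376.6 on vehicle on its middle probe set (0.28). Whether these control differences bear on any gene above was not tested.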

How the data were processed

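The deposited values are signal intensities on a linear scale, made by the authors with MAS5 per the submitters' processing notes, and the 2% trimmed mean of every array was 500.2, so the authors' scaling was kept. The 66 control probe sets were left out. Of 12422 others, 10833 named 1 gene in the platform table (10817 under a current symbol), 396 named several and 1193 none. Values under the 40th percentile of the table (145.9) were raised to it and log2 was taken. Probe sets with a mean log2 above it over the 7 arrays passed (8421, for 6326 genes, each represented by its brightest). No test was run, as each group has 1 array. Counts were checked on simulated data. The members and lists were chosen with earlier results of these data known. The named genes are the 25 highest and 25 lowest among those with a signal of at least 291.8, the 2-fold members of 29 lists, and the extremes of lists with none. Other list members, genes with the cyclic AMP element and genes named by role were picked after their values were seen. Promoters came from the RefSeq table of GRCm38.p6. Python 3.11.15, pandas 2.3.3, numpy 2.4.6, scipy 1.17.1 and matplotlib 3.10.9 were used.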

Additional observations from a re-analysis of the deposited data

How the results depend on the processing

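How many genes were called moved with the floor and with the fold required. Against 99 higher and 70 lower probe sets, and 78 higher and 48 lower genes, a floor at the 20th percentile gave 412 and 376 probe sets, and 264 and 226 genes. A floor at the 60th gave 37 and 15 probe sets, and 32 and 10 genes. At 1.5-fold there were 326 and 313 probe sets, and 255 and 231 genes, and at 3-fold 22 and 10 probe sets, and 18 and 7 genes. With 50 added to each signal in place of the floor, 43 probe sets and 27 genes were lower, against 76 probe sets and 59 genes higher. Quantile normalization gave 86 higher and 50 lower genes. Chosen after seeing the data, a signal of at least 1000 left 28 and 6 probe sets, and 23 and 4 genes, and leaving out probe sets with a suffix left 46 lower probe sets. The share of higher genes with the cyclic AMP element was 8.45% with the floor at the 20th percentile and 6.91% at 1.5-fold, and between 11.8% and 22.2% under the others. Of 460 ratios of named genes under the alternatives, 396 moved by less than 0.5 on the log2 scale, and of 174 list medians 158 moved by less than 0.1. The floor at the 60th percentile moved the most. There 45 named ratios moved further than that and 47 did not, as did 7 list medians against 22. None of these ratios and medians changed sign where it had been called. The causes were not tested. No paired analysis was possible because each group has 1 array. The number of arrays, and signals close to the floor, limit what can be said of dim genes.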
